A study of Canis lupus familiaris with 21 samples.

Results

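The myeloid growth factor receptors and ligands examined here are the 5 receptor genes CSF1R, FLT3, CSF2RA, CSF2RB and CSF3R and the 2 ligand genes CSF1 and IL34. They were chosen by name and make up 7 of the 21399 genes in the expression tables, in which each of the 7 had 1 entry. They were followed in canine cutaneous histiocytoma (CCH), a skin tumor of young dogs that arises from Langerhans cells and usually regresses when lymphocytes infiltrate it. RNA from formalin-fixed, paraffin-embedded (FFPE) tumors was sequenced from its 3′ end (QuantSeq) in 21 samples. Sample group 1 held 5 tumor cell-rich samples of stage 1, by histology without a lymphocyte infiltrate, from 5 dogs aged 0.5 to 5.0 years (4 ages known). Sample group 2a held 5 tumor cell-rich samples of stage 2 from 5 dogs aged 0.6 to 3.0 years. Sample group 2b held 6 lymphocyte-enriched samples of stage 2 from 17 dogs aged 0.3 to 6.0 years by the labels (16 ages known), of which 4 were pools of 3 to 4 dogs and 2 came from single dogs. Sample group 3 held 5 lymphocyte-enriched samples of stage 3 from 5 dogs aged 1.5 to 9.0 years. No treatment or genotype was given for any group, the dogs were of various breeds, and each group is tissue that still holds other cells. The total count per sample ranged from 2113393 to 3559404.

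CSF1R is the receptor tyrosine kinase by which macrophages, monocytes and Langerhans cells receive survival signals, and it has a pair of ligands, CSF1, made by many cell types, and IL34, made in the epidermis by keratinocytes and needed to maintain Langerhans cells. FLT3 is a related receptor kinase that drives the growth of early hematopoietic and dendritic cells. CSF2RA is the ligand-binding chain of the receptor for granulocyte-macrophage colony-stimulating factor (GM-CSF), and CSF2RB is the signaling chain that this receptor shares with those for interleukin-3 and interleukin-5, whereas CSF3R is the receptor of granulocyte colony-stimulating factor and is used mainly by neutrophils.

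On the UU_Cfam_GSD_1.0 assembly, the ligand genes lie at chr6:42485555-42505704 (CSF1) and chr5:77174314-77185475 (IL34). The kinase receptors lie at chr4:59895615-59925571 (CSF1R) and chr25:11653606-11730223 (FLT3). The cytokine receptors lie at chrX:748192-771608 (CSF2RA), chr10:28542588-28567688 (CSF2RB) and chr15:5890652-5904148 (CSF3R). Reads of 5 members were found in all 21 samples, and reads of FLT3 and CSF3R in 20 each. Levels are given as normalized counts, the raw count divided by a size factor of its sample, and are compared between samples and not between genes. A member was called in a comparison when its log2 fold change was at least 1 in size and its Benjamini-Hochberg adjusted p over all genes tested was at most 0.05 (edgeR).

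All calls of members lay between the kinds of tissue area, and none between stages of the same kind of area. In the lymphocyte-enriched areas of stage 2, the ligands CSF1 and IL34 were 3.66-fold and 2.25-fold higher than in the tumor cell-rich areas of stage 2. FLT3, which had few reads and passed the count minimum only through the tumor cell-rich samples, was 5.84-fold lower. In stage 3 against stage 1, CSF1 was 6.96-fold and CSF2RA 2.27-fold higher. CSF1R, the receptor of both ligands, and CSF2RB were called in none of the 4 comparisons. The fits differed in power. In simulated data, 2-fold changes passed the adjusted p threshold in 3.5% of changed genes for group 2a against 1 and 37% for 3 against 2b. The shares were 39% for group 2b against 2a and 10% for 3 against 1. A member that was not called, above all in group 2a against 1, may therefore still differ.

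**Figure D1:**
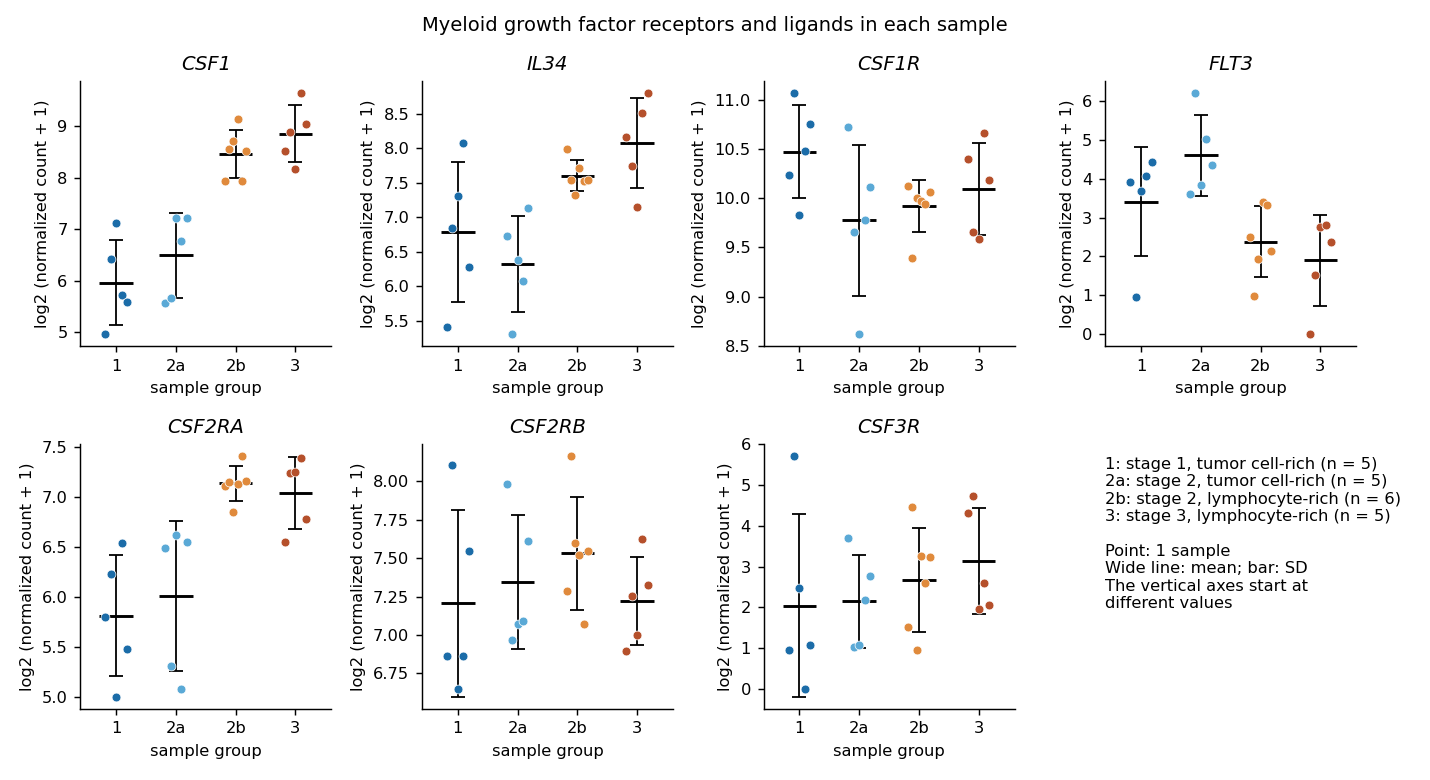
Level of each member in the 21 samples, as log2 of the normalized count plus 1 (vertical axes, which start at different values), by sample group (horizontal axes); each point is 1 sample, the wide line the group mean and the bar the SD. The lymphocyte-enriched groups 2b and 3 lie above the tumor cell-rich groups 1 and 2a for CSF1, with no overlap, and largely above them for CSF2RA, while FLT3 is highest in group 2a.

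CSF1 separated the kinds of area. Its normalized counts in the tumor cell-rich samples were 30.2, 85.2, 138, 52.0 and 47.0 in group 1 and 46.4, 50.02, 148, 109 and 148 in group 2a. In group 2b they ran from 243 through a median of 370 to 562, and in group 3 they were 368, 473, 289, 800 and 527. Every lymphocyte-enriched sample lay above every tumor cell-rich sample, and the order of the means was group 3 (491 ± 196, SD, n = 5), group 2b (368 ± 119, n = 6), group 2a (100.2 ± 50.1, n = 5) and group 1 (70.4 ± 42.5, n = 5). Of the neighbors in this order, only groups 2b and 2a did not overlap, and groups 3 and 2b (exact permutation p = 0.242, 2-sided, unadjusted, as are the other exact p-values of neighbors) and groups 2a and 1 (exact p = 0.310) did not differ beyond their spread. The log2 fold change was 1.87 (SE 0.335, 95% CI 1.15 to 2.59, adjusted p = 0.00180) for group 2b against 2a and 2.80 (SE 0.398, 95% CI 1.94 to 3.66, adjusted p = 0.00200) for group 3 against 1. In bulk tissue such as this, a difference in the number of cells of a type cannot be told apart from a difference in RNA per cell. The summed T cell, B cell and macrophage markers moved with CSF1 between areas, and their values are given further on.

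IL34, the second ligand of CSF1R, had normalized counts of 41.6, 114, 158, 270.0 and 76.5 in group 1 and 105, 38.6, 82.2, 66.7 and 139 in group 2a. The 6 samples of group 2b ran from 159 through a median of 185 to 253, and those of group 3 were 287, 212, 141, 364 and 445. All samples of group 2b lay above all of group 2a, whereas group 1 spread across the range of the other groups with its highest sample, replicate 4, above every sample of group 2b. The means were 290 ± 120 in group 3, 196 ± 32.2 in group 2b, 132 ± 88.4 in group 1 and 86.3 ± 38.2 in group 2a, and no pair of neighbors in this order differed beyond its spread (exact permutation p from 0.0909 to 0.413). IL34 was called in group 2b against 2a (log2 fold change 1.17, SE 0.259, 95% CI 0.62 to 1.72, adjusted p = 0.00685), and without replicate 2 of group 2a its log2 fold change of 0.98 (adjusted p = 0.00785) missed the fold threshold. In group 3 against 1 its log2 fold change was of like size, 1.13, with a wider interval (SE 0.437, 95% CI 0.18 to 2.07, adjusted p = 0.104). Without replicate 4 of group 1 that value was 1.57 with an adjusted p of 0.0262.

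CSF1R, the receptor of both ligands, was read in every sample with 353 to 2299 raw counts. Its normalized counts were 1206, 2152, 913, 1426 and 1728 in group 1 and 1689, 808, 392, 877 and 1108 in group 2a. Group 2b ran from 672 through a median of 1016 to 1119, and in group 3 they were 1348, 807, 769, 1624 and 1162. All 4 groups overlapped, with the lowest of the 21 levels in group 2a and the highest in group 1. The order of the means was group 1 (1485 ± 478), group 3 (1142 ± 363), group 2b (980 ± 158) and group 2a (974.6 ± 475), and the exact permutation p of neighbors ran from 0.222 to 0.693. The log2 fold change of group 2b against 2a was 0.00 (95% CI -0.58 to 0.59, adjusted p = 0.993), and that of group 3 against 1 was -0.38 (95% CI -0.94 to 0.19, adjusted p = 0.367). In group 2a against group 1 it was -0.60 (SE 0.338, 95% CI -1.34 to 0.13, adjusted p = 0.378), with 3 of 5 samples of group 2a below all of group 1.

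FLT3 had few reads, from 0 to 70 raw counts per sample. Its normalized counts were 14.2, 0.94, 11.8, 15.7 and 20.8 in group 1 and 11.1, 72.9, 13.3, 31.6 and 19.4 in group 2a. Those of group 2b ran from 0.96 through a median of 4.02 to 9.55, and in group 3 they were 0, 1.89, 5.82, 6.04 and 4.19. All samples of group 2a lay above all of groups 2b and 3, although the gap was narrow, with 12 raw counts in the lowest sample of group 2a and 9 in the highest of group 2b, and replicate 2 of group 2a stood highest of the 21 samples. A level of 0 stands for 0 reads, which at this depth allows up to 3. The means were 29.7 ± 25.5 in group 2a, 12.7 ± 7.34 in group 1, 5.06 ± 3.49 in group 2b and 3.59 ± 2.61 in group 3, and no neighbors differed beyond their spread (exact permutation p from 0.173 to 0.468). FLT3 was called lower in group 2b than in group 2a (log2 fold change -2.55, SE 0.589, 95% CI -3.81 to -1.28, adjusted p = 0.00891). It entered that test only through group 2a, in which all 5 samples reached the minimum of 10 counts, while 0 of the 6 samples of group 2b did, so that a difference was already set by the filter. It had too few counts to be tested in group 3 against 2b or 3 against 1, where an exact permutation test gave p = 0.468 and p = 0.119. The log2 fold change of 1.23 for group 2a against group 1 had an interval from -0.19 to 2.65 (adjusted p = 0.348).

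CSF2RA, the GM-CSF-binding chain, had normalized counts of 54.8, 74.0, 31.0, 92.1 and 43.7 in group 1 and 89.1, 38.6, 97.8, 32.7 and 93.0 in group 2a. In group 2b they ran from 114 through a median of 140.4 to 169.8, and in group 3 they were 92.9, 151, 151, 167 and 109. Group 2b lay wholly above groups 1 and 2a, and group 3 lay wholly above group 1 but shared the upper end of group 2a in 1 sample. The means were 141 ± 17.6 in group 2b, 134 ± 31.6 in group 3, 70.2 ± 31.8 in group 2a and 59.1 ± 24.3 in group 1. Of the neighbors in this order, group 3 differed from group 2a (exact permutation p = 0.0238) and the other two pairs did not differ beyond their spread (exact p = 0.619 and 0.675). CSF2RA was called in group 3 against 1 (log2 fold change 1.18, SE 0.294, 95% CI 0.54 to 1.82, adjusted p = 0.0216). This call was lost without replicate 5 of group 1 or without replicate 2 or 4 of group 3 (adjusted p = 0.0544, 0.0501 and 0.0588). In group 2b against 2a its log2 fold change of 0.99 (SE 0.267, 95% CI 0.42 to 1.56, adjusted p = 0.0206) passed the p threshold and missed the fold threshold, so it was not called.

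CSF2RB, the shared signaling chain, had normalized counts of 115, 275, 99.3, 116 and 186 in group 1 and 251, 124, 133, 136 and 195 in group 2a. Group 2b ran from 134 through a median of 184 to 286, and in group 3 they were 118, 152, 127, 196 and 159. The groups overlapped throughout. The means were 189 ± 52.5 in group 2b, 168 ± 54.4 in group 2a, 158 ± 73.4 in group 1 and 150.5 ± 30.8 in group 3, and the exact permutation p of neighbors ran from 0.459 to 0.968. Its log2 fold changes were 0.09 (95% CI -0.58 to 0.76) for group 2a against 1, -0.34 (-0.75 to 0.08) for 3 against 2b, 0.17 (-0.31 to 0.65) for 2b against 2a and -0.07 (-0.67 to 0.53) for 3 against 1.

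CSF3R was the scarcest member, with 0 to 55 raw counts per sample, and had too few counts for the edgeR test in any comparison. Its normalized counts were 0.94, 51.5, 4.55, 0 and 1.09 in group 1 and 12.1, 1.04, 1.11, 3.51 and 5.81 in group 2a. The 6 samples of group 2b ran from 0.93 through a median of 6.73 to 21.1, and in group 3 they were 19.0, 25.5, 2.91, 5.04 and 3.14. The mean of group 1 (11.6 ± 22.4) rested on replicate 2, which alone exceeded 4.55, and no group stood apart (exact permutation p from 0.365 to 0.921 in the 4 comparisons). In that replicate the summed neutrophil markers were 9571, the highest of the 21 samples, and replicate 2 of group 3, which had the second highest CSF3R level, had the second highest sum, 8943. Over the 21 samples this sum rested mainly on S100A8, S100A9 and S100A12 (means of 960, 545 and 740 normalized counts), while CXCR1 and MPO had means of 3.33 and 0.28. The part of neutrophils in the sum and in the CSF3R levels was not tested, and replicate 1 of group 1, with a sum of 8000, had a CSF3R level of 0.94.

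**Figure D2:**
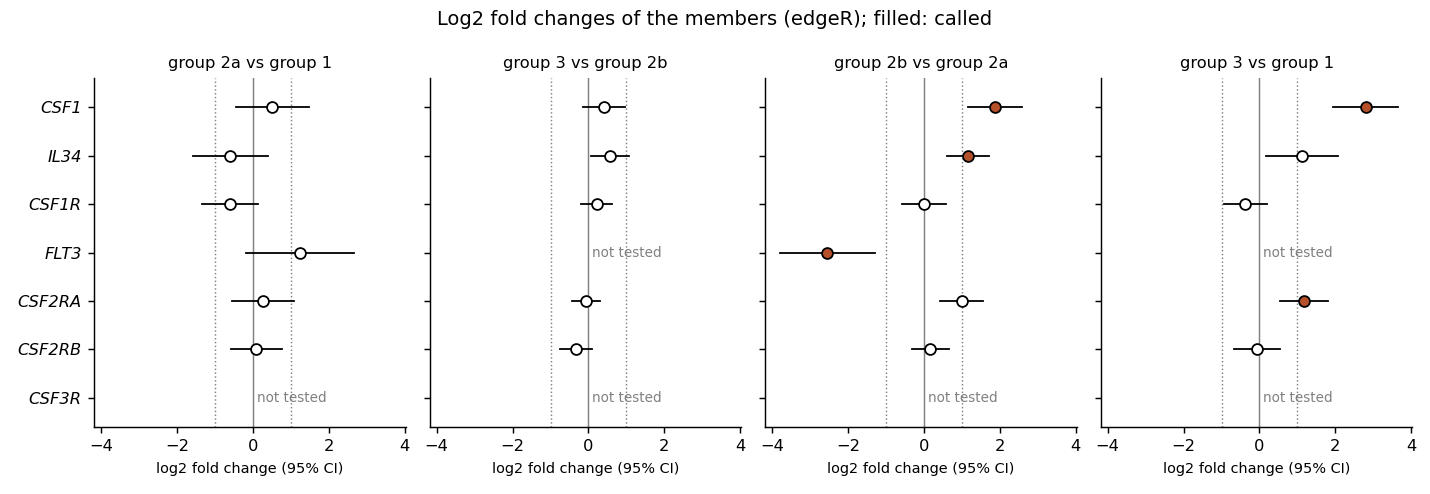
Log2 fold change of each member (points) with its 95% confidence interval (lines) in the 4 comparisons, from edgeR; filled points were called and dotted lines mark a log2 fold change of 1 in size. CSF1, IL34 and FLT3 were called in group 2b against 2a, CSF1 and CSF2RA in group 3 against 1, and none in the comparisons between stages.

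The study itself asked whether tumor cells change between stage 1 and stage 2. Stage 1 is defined by histology as free of lymphocytes, but the summed T cell markers, described further on, overlapped between the groups. They ran from 48.2 to 1747 in group 1 and from 432 to 1411 in group 2a (exact permutation p = 0.5), so this comparison is not simply one of before and after lymphocytes enter. None of the 6 members tested was called in group 2a against group 1, against 0.393% of the 11200 genes tested. None of the 6 had an unadjusted p under 0.05 either, as 17.9% of the genes had, and DESeq2 and limma also called 0. The log2 fold changes not yet given were 0.51 for CSF1 (95% CI -0.45 to 1.48, adjusted p = 0.596), -0.60 for IL34 (-1.58 to 0.38, adjusted p = 0.532) and 0.25 for CSF2RA (-0.57 to 1.07, adjusted p = 0.782). Group 1 had the lowest share of RNA fragments over 200 nucleotides (DV200, 68.5% ± 2.46 against 73.7% ± 2.69 in group 2a, exact permutation p = 0.0159). With DV200 as a covariate the log2 fold changes of CSF1 and CSF2RA were -0.13 and -0.61, and 0 members were called.

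The second question of the study was whether lymphocyte-enriched tissue changes from stage 2 to stage 3. None of the 5 members tested was called in group 3 against group 2b, against 0.0428% of 11685 genes, and DESeq2 and limma also called 0. IL34 alone had an unadjusted p under 0.05, as 13.1% of the genes had (edgeR log2 fold change 0.56, SE 0.235, 95% CI 0.06 to 1.06, adjusted p = 0.334). Of the 5 samples of group 3, 3 lay above all of group 2b and 1 lay below. The other log2 fold changes were 0.41 for CSF1 (95% CI -0.13 to 0.96, adjusted p = 0.521), 0.22 for CSF1R (-0.20 to 0.63, adjusted p = 0.678) and -0.07 for CSF2RA (-0.44 to 0.30, adjusted p = 0.899).

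The kinds of area were compared within stage 2 and between stages 3 and 1, pairs that the study did not test. Of the 6 members tested in group 2b against 2a, 3 were called, against 9.55% of 11545 genes. Without FLT3, which passed the count minimum through group 2a alone, 2 of 5 were called. CSF1, IL34 and CSF2RA lay above group 2a in every sample of group 2b and FLT3 lay below it, and 10.5% of the genes tested had no overlap between these groups. Of the 5 members tested in group 3 against 1, 2 were called, against 8.33% of 11470 genes, and the same 2, CSF1 and CSF2RA, did not overlap, as did 11.9% of the genes tested. Group 3 differed from group 1 in stage as well as area, and group 2b from group 2a in pooling as well as area, so that these cannot be told apart. The RNA quality number, a score of RNA integrity taken from the sample table of the study, was lower in every sample of group 2b than in every sample of group 2a. Differences of RNA integrity and of area therefore cannot be told apart within stage 2, for CSF1, IL34 and FLT3 as for the other genes, while this number overlapped between groups 3 and 1.

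Several of these calls were lost under other settings. With the RNA quality number as a covariate, no member was called in group 2b against 2a, although the log2 fold changes were 1.98 for CSF1 (adjusted p = 0.320), 1.72 for IL34 (adjusted p = 0.173) and -3.27 for FLT3 (adjusted p = 0.361). When group 2b was limited to its 2 samples from single dogs, the log2 fold changes were 1.63, 1.35 and -3.32 and again none was called (adjusted p = 0.114, 0.140 and 0.155). With only the pooled samples, 3 were called. With DV200 as a covariate, CSF1 and CSF2RA were not called in group 3 against 1 (log2 fold changes 2.71 and 1.04, adjusted p = 0.0511 and 0.307). The labels and the sample table of the study differ in the DV200 of replicate 5 of group 3. The values here rest on the labels, and with the value of the table, an alternative chosen after seeing the data, the log2 fold changes were 2.65 and 1.15 (adjusted p = 0.0782 and 0.355). DV200 was 73.2% ± 2.09 in group 3 and 68.5% ± 2.46 in group 1 (exact permutation p = 0.0238), while it was 74.6% ± 1.73 in group 2b and 73.7% ± 2.69 in group 2a (exact p = 0.511).

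Whether the difference between areas was itself different for stage 3 against 1 than within stage 2 was tested over all 4 groups, which share no samples between the pairs. None of the 7 members passed, none had an unadjusted p under 0.05, DESeq2 also gave 0, and 0 of the 12505 genes tested passed at an adjusted p of 0.05, with 1301 at an unadjusted p under 0.05. The largest value in favor of stage 3 was that of CSF1, whose log2 fold change between areas was 0.93 larger (SE 0.526, 95% CI -0.16 to 2.02, adjusted p = 0.548).

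Pairs of members were also compared as ratios of their normalized counts plus 1 within a sample. The size factor has little weight in such a ratio where both counts are high, and more where they are as low as those of FLT3 and CSF3R. The log2 ratio of CSF1 to CSF1R had means of -4.51 and -3.29 in groups 1 and 2a and of -1.46 and -1.24 in groups 2b and 3. It was 3.27 higher in group 3 than in group 1 (exact permutation p = 0.00794, the smallest that 5 against 5 samples can give, adjusted p = 0.0693 over the 20 ratio tests) and 1.83 higher in group 2b than in group 2a (exact p = 0.0173, adjusted p = 0.0693).

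The log2 ratio of IL34 to CSF1 ran the other way, from 0.82 in group 1 and -0.17 in group 2a to -0.86 in group 2b and -0.78 in group 3, and the difference of group 3 from group 1 was -1.61 (exact permutation p = 0.00794, adjusted p = 0.0693). The log2 ratio of CSF2RA to CSF2RB, the chains of the GM-CSF receptor, averaged -1.40 and -1.33 in groups 1 and 2a and -0.39 and -0.17 in groups 2b and 3. It was 0.94 higher in group 2b than in group 2a (exact permutation p = 0.0173, adjusted p = 0.0693) and 1.22 higher in group 3 than in group 1 (exact p = 0.0238, adjusted p = 0.0794). The log2 ratio of FLT3 to CSF1R was -5.17 in group 2a and -7.54 in group 2b (exact permutation p = 0.0130, adjusted p = 0.0693). None of the 20 ratio tests passed after adjustment.

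**Figure D3:**
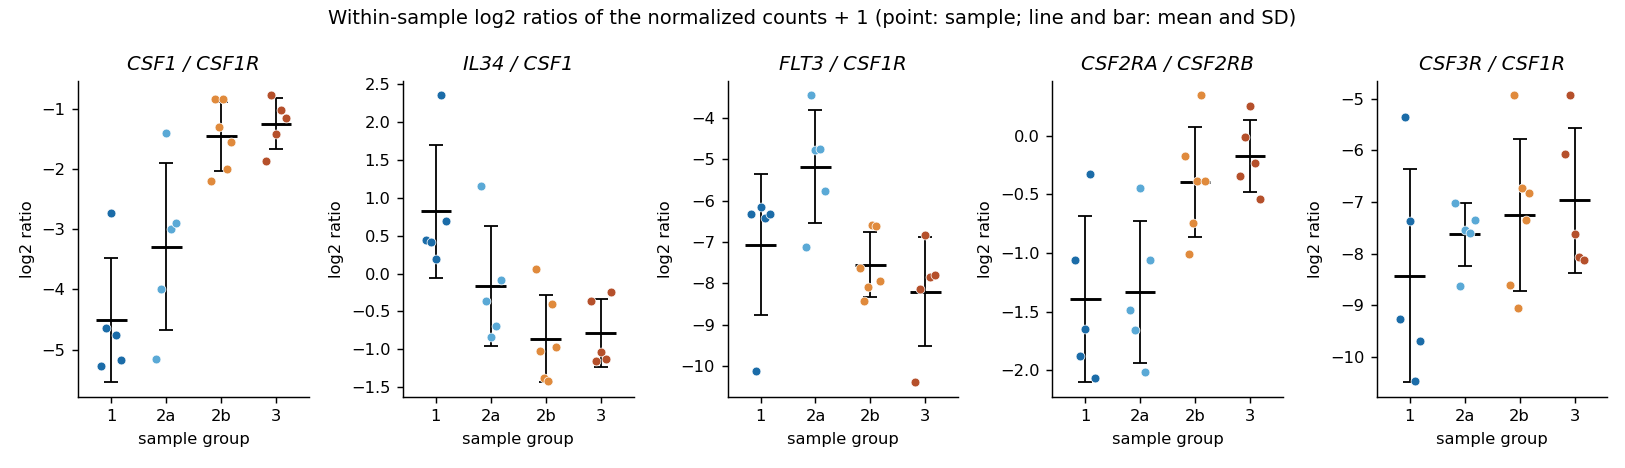
Within-sample log2 ratios of the normalized counts plus 1 (vertical axes, which start at different values) for 5 pairs of members by sample group (horizontal axes); each point is 1 sample, the wide line the mean and the bar the SD. The ratio of CSF1 to CSF1R is higher, and that of IL34 to CSF1 lower, in every sample of group 3 than in every sample of group 1.

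Markers of the cell types that the tissue can hold were summed in each sample. The lymphocyte-enriched areas, which were defined by histology, had higher T cell marker sums. The summed counts of 8 T cell markers ran from 48.2 to 1747 in group 1 and 432 to 1411 in group 2a, and from 2456 to 3763 in group 2b and 2815 to 4286 in group 3. They were higher by 2.15 on the log2 scale in group 2b than in 2a (exact permutation p = 0.00433, the smallest that 6 against 5 samples can give) and by 3.15 in group 3 than in 1 (exact p = 0.00794), and 6 of 7 and 3 of 7 tested T cell markers were called higher. Of all genes tested in these comparisons, 5.98% and 4.92% were called higher and 3.57% and 3.41% lower. The same shares apply to the counts of called markers that follow. The 6 B cell markers summed to 12.02 to 76.8 and 10.4 to 46.7 in groups 1 and 2a and to 531 to 1243 and 94.9 to 1058 in groups 2b and 3, with 5 of 6 and 2 of 4 tested called higher.

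The 9 macrophage markers in the tables summed to 1132 to 8261 and 1625 to 4853 in groups 1 and 2a and to 3672 to 8536 and 4895 to 9998 in groups 2b and 3. Their sum was higher by 1.14 on the log2 scale in group 2b than in 2a (exact permutation p = 0.0173) and by 1.38 in group 3 than in 1 (exact p = 0.0397), with 2 of 9 and 1 of 8 tested markers called higher. Of the 8 dendritic cell markers tested, 3 were called higher in group 2b than in 2a, XCR1, CCR7 and FSCN1 (log2 fold changes 2.47, 1.86 and 1.68, adjusted p = 0.000641, 0.00582 and 0.000903). CCR7, FSCN1 and CD83 were called higher in group 3 against 1 (2.02, 1.59 and 1.09, adjusted p = 0.0264, 0.0135 and 0.0444) and FCER1A lower (-2.71, adjusted p = 0.00398). Of the remaining markers, S100A9 was the 1 of 5 neutrophil markers called lower (-2.62, adjusted p = 0.00651) and CLDN5 the 1 of 6 endothelium markers called higher (1.16, adjusted p = 0.0361) in group 2b against 2a, and TP63 the 1 of 6 keratinocyte markers called lower (-1.34, adjusted p = 0.0410) in group 3 against 1. CD4 and MS4A1 were at 0 in all samples of groups 1 and 2a, and MPO was at 0 in group 3. CD4 and MPO had means of only 0.23 and 0.28 normalized counts over the 21 samples, too few to tell the groups apart. The part of these cell types in the levels of CSF1, IL34, CSF2RA and FLT3 was not tested.

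**Figure D4:**
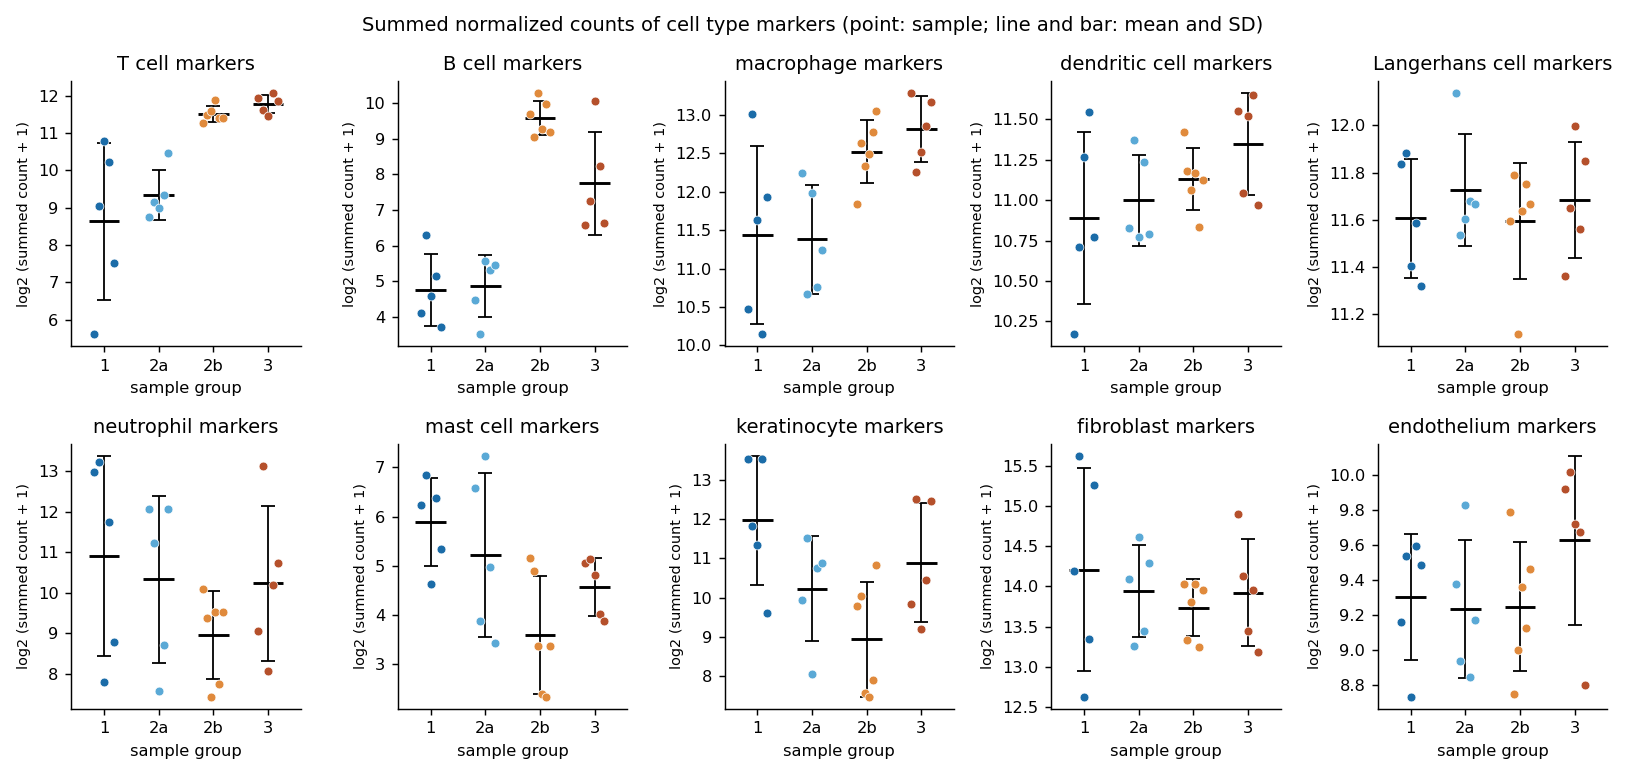
Summed normalized counts of the markers of 10 cell types, as log2 of the sum plus 1 (vertical axes, which start at different values), by sample group (horizontal axes); each point is 1 sample, the wide line the mean and the bar the SD. T cell and B cell sums of groups 2b and 3 lie above all sums of groups 1 and 2a, while Langerhans cell, fibroblast and endothelium sums overlap between all groups. The Langerhans cell sum rests mainly on ITGB2.

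The sums of the other lists did not differ at p of at most 0.05 in the comparisons of areas, apart from mast cell markers in group 3 against 1 (difference of -1.31 on the log2 scale, exact permutation p = 0.0397). The Langerhans cell markers, which the tumor cells should carry, summed to 2553 to 3780 and 2966 to 4503 in groups 1 and 2a and to 2217 to 3544 and 2632 to 4091 in groups 2b and 3, so that all groups overlapped. This sum rested mainly on ITGB2 (mean of 2484 normalized counts over the 21 samples) and AIF1 (528), against 112 for CDH1, 102 for DLA-DRA and 24.2 for EPCAM. It therefore cannot show whether the content of tumor cells was alike between areas. CD1A6, a CD1a gene of the dog and 1 of the 6 markers, was at 0 in groups 1 and 3. Its mean over the 21 samples was only 0.41 normalized counts, too few to tell the groups apart. Keratinocyte markers, the epidermal source of IL34 in normal skin, summed to 786 to 11844 and 265 to 2956 in groups 1 and 2a and to 178 to 1836 and 587 to 5859 in groups 2b and 3. On the log2 scale their sum differed by -1.29 in group 2b against 2a (exact permutation p = 0.134), -1.07 in 3 against 1 (exact p = 0.302), -1.73 in 2a against 1 (exact p = 0.119) and 1.96 in 3 against 2b (exact p = 0.0693). The part of keratinocytes in the level of IL34 was not tested.

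Within the same kind of area, members were compared with each marker sum after the group means had been subtracted. Of these 140 relations, 14 had a raw permutation p of at most 0.05 and 0 passed after adjustment. Those with a p of r under 0.01 are given here, all with an adjusted p of 0.172 for r and 0.277 for rho. Among the 11 lymphocyte-enriched samples, CSF1 and the T cell sum had the smallest p of these (Pearson r = 0.82, permutation p = 0.00243; Spearman rho = 0.81, permutation p = 0.00427) with r = 0.68 without the 2 samples farthest from the median sum. For the same pair among the 10 tumor cell-rich samples r was 0.68 (permutation p = 0.0263, adjusted p = 0.410; rho = 0.75, p = 0.0175, adjusted p = 0.277) and fell to 0.37 without 2 samples. The sample of group 1 with the fewest T cell marker counts, replicate 1, also had the lowest CSF1 level, and replicate 3, with the most, the highest.

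The other 6 such relations lay among the tumor cell-rich samples. IL34 had a positive r with the T cell sum (r = 0.81, permutation p = 0.00417, rho = 0.77, p = 0.0128, r = 0.74 without 2 samples). CSF2RA had one with the endothelium sum (r = 0.82, permutation p = 0.00507, rho = 0.83, p = 0.00477, r = 0.77 without 2 samples) and CSF2RB with the fibroblast sum (r = 0.78, permutation p = 0.00860, rho = 0.81, p = 0.00712, r = 0.57 without 2 samples). CSF3R had one with the macrophage sum (r = 0.77, permutation p = 0.00756, rho = 0.78, p = 0.0108, r = 0.41 without 2 samples). FLT3 had a negative r with the macrophage sum (r = -0.77, permutation p = 0.00723, rho = -0.75, p = 0.0171, r = -0.62 without 2 samples) and with the B cell sum (r = -0.78, permutation p = 0.00719, rho = -0.75, p = 0.0170, r = -0.41 without 2 samples).

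Pairs of members were compared in the same way, and of 42 relations 7 had a raw permutation p of at most 0.05 and 0 passed after adjustment. CSF1R and CSF2RB were related among the tumor cell-rich samples (n = 10, r = 0.79, permutation p = 0.00530, adjusted p = 0.111; rho = 0.82, p = 0.00605, adjusted p = 0.193; r = 0.91 without 2 samples) and had an r of -0.14 among the lymphocyte-enriched ones (permutation p = 0.692, adjusted p = 0.873). Among the latter, CSF1R and its ligand IL34 had a raw p under 0.05 (r = 0.68, permutation p = 0.0207, adjusted p = 0.160, rho = 0.64, p = 0.0406, adjusted p = 0.368, r = 0.57 without 2 samples). CSF2RB and CSF1, not a receptor and its ligand, had a like r there (r = 0.68, permutation p = 0.0207, adjusted p = 0.160, r = 0.84 without 2 samples). For CSF1R and IL34 among the tumor cell-rich samples r was 0.14 (permutation p = 0.711). For CSF1R and its other ligand, CSF1, r was 0.35 among the lymphocyte-enriched samples (permutation p = 0.288) and -0.40 among the tumor cell-rich ones (permutation p = 0.251). The inverse relation of FLT3 and CSF3R among the tumor cell-rich samples (r = -0.82, permutation p = 0.00525, adjusted p = 0.111; rho = -0.79, p = 0.00919, adjusted p = 0.193) rested on 2 samples, since r was -0.35 without them.

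The genes most like each member were sought among 9972 genes over the 21 samples, by Pearson's r of log2 levels, with r after subtracting the group means in brackets, as a description. Since the areas form separate clusters, a high r over all samples can come from the difference between areas alone. CSF1 was most like ITGAL at 0.95 (0.80), an integrin chain of leukocytes, TMEM176A at 0.94 (0.73) and SLAMF7 at 0.94 (0.76). IL34 was most like CD81 at 0.91 (0.82), CD8B at 0.90 (0.83), a coreceptor chain of cytotoxic T cells, and MGLL at 0.88 (0.72).

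Among the receptors, CSF2RA was most like CHPF at 0.90 (0.73), IFNAR2 at 0.90 (0.72), a chain of the type I interferon receptor, and CCDC88C at 0.88 (0.66). CSF2RB was most like MS4A7 at 0.82 (0.81), TNFSF13B at 0.78 (0.82), the B cell survival factor BAFF, and PDXK at 0.77 (0.82). CSF1R was most like SLC36A1 at 0.81 (0.80), GSS at 0.78 (0.72), which makes glutathione, and ITM2B at 0.78 (0.76). FLT3 was most like PABPC1 at 0.87 (0.76), LOC111098807 at 0.84 (0.68) and DNAH10 at 0.84 (0.79). CSF3R was too low for this comparison.

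The ligands of the other member receptors were scarce or not called. CSF2, which encodes GM-CSF, had at most 3 raw counts in any sample, so that its level could not be compared at this depth. CSF3 exceeded 3 raw counts in 1 sample, replicate 2 of group 1, with 21, the same sample that had the highest CSF3R level. FLT3LG, the ligand of FLT3, had medians of 26.2, 26.1, 44.3 and 46.6 normalized counts in groups 1, 2a, 2b and 3, and was not called in group 2b against 2a (log2 fold change 0.70, adjusted p = 0.113) or 3 against 1 (0.88, adjusted p = 0.0926). Of this list of 15 other ligands and receptors, 13 were in the tables, and none of the 5 to 6 tested in each comparison was called by edgeR, with an unadjusted p under 0.05 for 2 in group 2a against 1, 0 in 3 against 2b, 4 in 2b against 2a and 1 in 3 against 1. Of all genes tested, 17.9%, 13.1%, 30% and 29.8% had such a p in these comparisons.

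Most genes of the signaling proteins downstream of the receptors were not called between areas, 22 of 26 tested in group 2b against 2a and 24 of 26 in group 3 against 1. In group 2b against 2a, 2 were called higher and 2 lower, against 5.98% and 3.57% of all genes. PIK3AP1, an adaptor that recruits phosphoinositide 3-kinase, and PIK3CD, a catalytic subunit of that kinase in leukocytes, were higher with log2 fold changes of 1.13 and 1.11 (adjusted p = 0.00198 and 0.00892). FES, a cytoplasmic tyrosine kinase of myeloid cells, and TYROBP, an adaptor of myeloid receptors, were lower at -1.18 and -1.11 (adjusted p = 0.000661 and 0.000725). PIK3CD was also higher in group 3 against 1, at 1.03 (adjusted p = 0.00583) and PIK3CG lower at -1.46 (adjusted p = 0.00137), 1 of 26 in each direction. Without the fold threshold, at an adjusted p of at most 0.05, 7 of the 26 were higher and 7 lower in group 2b against 2a, against 8.9% and 7.64% of all genes. In group 3 against 1, 4 were higher and 5 lower at that p, against 7.08% and 6.81%. The list medians, 0.05 and -0.06, lay near those of all genes tested, -0.01 and 0.00, but a median does not show changes that go both ways.

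Of 13 negative regulators and shedding enzymes tested in each comparison, SOCS1, an inhibitor of JAK kinases, was called higher in group 2b against 2a (log2 fold change 1.74, adjusted p = 0.00199). It was the 1 called higher, and 0 were called lower, against 5.98% and 3.57% of all genes. Without the fold threshold, at an adjusted p of at most 0.05, 1 was higher and 4 were lower, against 8.9% and 7.64%. Those lower were DUSP6, SPRED1, SH2B3 and PTPN6 at -0.90, -0.89, -0.80 and -0.54 (adjusted p = 0.00108, 0.00614, 0.00592 and 0.0494). In group 3 against 1, 2 were higher and 3 lower, against 4.92% and 3.41% of all genes. CBLB, a ubiquitin ligase that limits receptor signaling, and ADAM17, a protease that sheds CSF1R from the cell surface, were higher at 2.11 and 1.70 (adjusted p = 0.0382 and 0.00883). SOCS2, SPRED1 and SH2B3, inhibitors of cytokine, Ras and JAK signaling, were lower at -1.93, -1.58 and -1.37 (adjusted p = 0.0154, 0.00221 and 0.00415). The list medians were -0.14 and -0.11.

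Of the myeloid transcription factors, those called higher in group 2b against 2a included TFEC at a log2 fold change of 2.47 (adjusted p = 0.00227), IRF8 at 1.98 (adjusted p = 0.000147), which monocytes, dendritic cells and B cells use, and EGR2 at 1.37 (adjusted p = 0.00183), and 0 were called lower. Of all genes, 5.98% were called higher and 3.57% lower. Without the fold threshold, at an adjusted p of at most 0.05, 6 of 20 were higher and 2 lower, against 8.9% and 7.64%. Those lower were BATF3 at -0.95 and RUNX3 at -0.61 (adjusted p = 0.0211 and 0.00430). In group 3 against 1, 5 of 19 were called higher and 1 lower, against 4.92% and 3.41% of all genes, with EGR2 at 3.17, TFEC at 2.50, EGR1 at 1.97, IRF8 at 1.36 and ETV6 at 1.16 among the higher and BATF3, a factor of conventional dendritic cells, lower at -1.10, with adjusted p from 0.00361 to 0.0335 and a list median of 0.46. In group 2a against 1, ETV6 was the 1 factor called of 18 (log2 fold change 1.36, adjusted p = 0.0451), against 0.357% of all genes called higher. This call depended on single samples. Without replicate 2, 3 or 5 of group 1, or replicate 2, 3, 4 or 5 of group 2a, 0 of all genes were called there. The same held with DV200 as a covariate or the replicate number as a block. In group 3 against 2b, 0 of the 65 genes tested of the 4 lists were called by edgeR or DESeq2. There 15 had an unadjusted p under 0.05, as 13.1% of all genes tested had. SHC1, of the signaling list, passed the p threshold in group 3 against 2b by edgeR, as 0.111% of all genes did, and missed the fold threshold (log2 fold change 0.96, adjusted p = 0.0228). The T cell, B cell and macrophage sums differed between the same areas as the genes named here, and their part was not tested.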

How the data were processed

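RNA was extracted from FFPE tissue of 21 samples and sequenced with the QuantSeq 3′ kit. The submitters' processing notes name cutadapt, STAR, featureCounts and DESeq2, and reads were aligned to the UU_Cfam_GSD_1.0 assembly. The handling of strand and of reads that match several places is not given in the sources used here. The authors deposited raw counts for each gene in 2 tables with the same counts. A signal was deposited beside them, the normalized count, and dividing the raw counts by a size factor for each sample (0.8551 to 1.27) gave the same values. Of their own comparisons, the authors deposited log2 fold changes and p-values, which were not used. The tables held 0 columns of an unknown sample. Total counts were 2113393 to 3559404 per sample, with a median of 2514859, and FLT3 and CSF3R had the fewest. The labels give no sequencing batch, and the replicates of a group come from different dogs.

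Members were found by symbol once the numbered ending was removed. Their positions come from the RefSeq annotation of the same assembly. The members and the lists were chosen with earlier results of these data known. Comparisons used edgeR 4.0.16 under R 4.3.3 (TMM, quasi-likelihood F-test, samples of the groups compared only) on genes with at least 10 counts in at least 5 samples, with Benjamini-Hochberg adjustment over all genes tested. Exact permutation tests were 2-sided and used log2 of the normalized count plus 1. Correlation p-values used 100000 permutations. All members are named, along with list genes that were called (at most 6 per list and comparison) and the 3 genes most like each member with a mean of at least 10, among genes with a mean of at least 20. Some list genes that passed only the adjusted p threshold are named as well. Relations of members with marker sums were added after the values had been seen. IL3, IL5RA, FOLR2, CXCR2, ELANE, MMP8, CLEC9A and CD1C were not analysed here. A further gene of the lists is not reported here. As alternatives, DESeq2 1.42.0 and limma 3.58.1 replaced edgeR, and DESeq2 size factors replaced TMM. The filter was dropped, all 4 groups entered 1 fit, DV200 of the labels or the RNA quality number of the study's sample table became a covariate, the replicate number became a block, group 2b was limited to pooled or to single-dog samples, the pseudocount was 0.5 or 5, and samples were left out in turn. The fits were tested on simulated data with 200 changed genes per comparison. Of 4-fold changes, 76% to 94.5% passed the adjusted p threshold, and of 2-fold changes 3.5% to 39%. Other steps ran in Python 3.11.15 (scipy 1.17.1).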

Additional observations from a re-analysis of the deposited data

Results flagged for a closer look

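Of 28 sets of values, each a member in a group, 2 held a sample whose gap to the others, relative to the range of the group, exceeded Dixon's 95% critical value. Chance gives such a gap in about 1 of 20 sets. In group 2b the CSF1R level of replicate 2, which came from a single dog, was 672 normalized counts, while the other 5 samples lay between 983 and 1119. In group 1 the CSF3R level of replicate 2 was 51.5 normalized counts, while the other 4 samples lay between 0 and 4.55. That sample also had the highest sum of neutrophil markers, 9571, and the only CSF3 count above 3. The part of either in the CSF3R level was not tested.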

How the results depend on the processing

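Members called in group 2b against 2a numbered 3, but 0 with the RNA quality number as a covariate, 0 with only single-dog samples of group 2b, and 1 to 4 when 1 sample was left out (1 without replicate 2 of group 2a). In group 3 against 1 there were 2, 0 with DV200 as a covariate, also with the value of the study's sample table for 1 sample, and 1 to 3 when 1 sample was left out, as CSF2RA was lost without replicate 5 of group 1 or replicate 2 or 4 of group 3. In the comparisons between stages 0 were called under every alternative run. DESeq2 called 2 genes of the pathway lists in group 2a against 1, where edgeR called 1. Over all genes, the calls of group 2a against 1 were 44 by edgeR, 269 by DESeq2, 178 with all 4 groups in 1 fit and 0 with DV200 as a covariate, and those of group 3 against 2b were 5 and 36 by edgeR and DESeq2. With 1 sample left out, the calls of group 2a against 1 by edgeR numbered 0 to 78. Of the ratios in group 2b against 2a, 0 passed, and 0 to 2 did when 1 sample was left out (2 without replicate 3 of group 2a). Values near 0 changed sign. The log2 fold change of CSF1R in group 2b against 2a, 0.00, was -0.0022 with DESeq2, -4.9e-05 with its size factors, -0.013 with all genes, -0.064 with DV200, -0.37 with the RNA quality number and -0.11 with single-dog samples, and -0.20 to 0.29 with 1 sample left out. That of CSF2RB was -0.19 with the RNA quality number. In group 2a against 1, with DV200, CSF2RA was at -0.61 and CSF1 at -0.13, and CSF2RB lay between -0.10 and 0.39 with 1 sample left out. In group 3 against 1, CSF1R was at 0.35 with DV200 (0.50 with the table's value), and CSF2RB at 0.014 with limma, 0.49 with DV200 (0.60 with the table's value), 0.29 with the RNA quality number, 0.013 with the replicate block and -0.20 to 0.22 with 1 sample left out. CSF2RA in group 3 against 2b lay between -0.16 and 0.039 with 1 sample left out. With 1 sample left out, the log2 ratios lay between -0.16 and 0.33 (CSF2RA to CSF2RB, 2a against 1), -0.088 and 0.74 (CSF3R to CSF1R, 2b against 2a), -0.22 and 0.75 (the same, 3 against 2b) and -0.061 and 0.26 (IL34 to CSF1, 3 against 2b). The cause was not tested. Equal replicate numbers did not pair samples (correlations of their deviations from -0.33 to 0.17, with 4 of 20 over 0.1). With the replicate number as a block, 3 members were called in group 2b against 2a, with CSF2RA gained (1.09, adjusted p = 0.0429) and FLT3 lost (-2.21, adjusted p = 0.0686). FLT3 fell under the count minimum whenever a sample of group 2a was left out of that comparison, so these fits give no value for it. Sequence motifs were not analysed here.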
